A study of Mus musculus with 2 samples.

Results

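Epidermal growth factor (EGF) family ligands and receptors were followed in RNA sequencing of cultured cells from mouse gonadal fat. The members were the rows of the deposited table whose symbol was one of 9 names, namely the ligands Areg, Tgfa, Ereg, Hbegf, Btc, and Nrg1 and the receptors Egfr, Erbb2, and Erbb3. All 9 were found among 24091 genes. The data comprised 2 libraries of polyadenylated RNA from C57BL/6 mice, 1 sham-irradiated and 1 irradiated in the pelvis, with PBS in both sample titles and no statement of what received it. The radiation is labelled as 7.5 Gy and 5 days, so it is not clear if the dose was daily or total. Collagenase was used to dissociate fat taken 2 months after radiation, and the floating fraction spent 3 days in culture before RNA extraction. Neither the age and sex nor the number of mice behind a library is stated. Because each condition had 1 library, no difference has a replicate check and no p-value was computed.

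EGF family ligands are made as membrane proteins and are released by proteases of the cell surface. They bind receptor tyrosine kinases that pair with each other and pass the signal on through the ERK and AKT kinase routes. Amphiregulin (Areg) and transforming growth factor alpha (Tgfa) bind EGFR, epiregulin (Ereg), heparin-binding EGF-like growth factor (Hbegf), and betacellulin (Btc) bind EGFR and ERBB4, and neuregulin 1 (Nrg1) binds ERBB3 and ERBB4. ERBB2 has no known ligand and serves as a partner of the other receptors, and ERBB3 has little kinase activity of its own. In adipose tissue, EGF receptor signalling is known for effects on the growth and differentiation of fat cell precursors.

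The ligands share a fold held by 6 cysteines, and the coding sequence of that stretch is shown because it is what makes these genes a family. The GENCODE M21 coding sequences (GRCm38) were searched for 6 cysteine codons with 7, then 4 or 5, then 10 to 13, then 1, and then 8 codons between them. Each of the 6 ligands held 1 such stretch. Capitals mark the cysteine codons, and each sequence runs 5′ to 3′ along the coding strand.
Ereg: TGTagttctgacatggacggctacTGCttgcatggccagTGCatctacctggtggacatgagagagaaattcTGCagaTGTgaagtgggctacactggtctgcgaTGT
Areg: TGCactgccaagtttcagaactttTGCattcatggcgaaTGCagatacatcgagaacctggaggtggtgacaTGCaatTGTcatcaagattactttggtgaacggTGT
Btc: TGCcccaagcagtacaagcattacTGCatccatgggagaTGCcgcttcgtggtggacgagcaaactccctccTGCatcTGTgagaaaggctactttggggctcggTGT
Tgfa: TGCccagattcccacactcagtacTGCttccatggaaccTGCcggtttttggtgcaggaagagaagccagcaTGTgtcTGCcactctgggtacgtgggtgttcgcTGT
Nrg1: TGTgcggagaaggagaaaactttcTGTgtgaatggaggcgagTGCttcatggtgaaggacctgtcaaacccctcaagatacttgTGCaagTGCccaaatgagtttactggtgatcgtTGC

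The spacing separated the EGFR ligands from Nrg1. In Ereg, Areg, Btc, Tgfa, and Hbegf the gaps were 7, 4, 10, 1, and 8 codons, 36 codons in all, whereas in Nrg1 they were 7, 5, 13, 1, and 8 codons, 40 in all. Among the 4 EGFR ligands printed, between 45.4% and 62% of the 108 bases were identical in each of the 6 pairs, lowest for Tgfa with Ereg and highest for Tgfa with Btc. The stretch lay across exons 3 and 4 in each EGFR ligand. With the intron between, it spans chr5:91088496-91089111 in Ereg, chr5:91143614-91144364 in Areg, and chr6:86263200-86269960 in Tgfa, all on the plus strand. In Btc it spans chr5:91362421-91366197 on the minus strand, and in the longest of 9 coding transcripts of Nrg1 it spans chr8:31837698-31849398 on the minus strand, across exons 2 and 3.

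Each library's values are log2 of FPKM plus 0.1, where FPKM counts fragments per kilobase of gene and per 1000000 fragments of the library and can be compared between genes. The fragment totals recovered from the values were 30600000 for the sham-irradiated and 35000000 for the irradiated library. A difference is given as irradiated minus sham-irradiated on that log2 scale, and a counting interval is the exact 95% interval (Clopper-Pearson) of the log2 ratio of fragments, without the added 0.1. All intervals cover counting error only. PCR copies of a molecule are not independent, and differences from mouse to mouse or culture to culture are not in the intervals. The label of primary adipocytes was checked against markers. Adipoq, the adipocyte hormone adiponectin, had FPKM values of 0.133 (sham-irradiated) and 0.232 (irradiated) and Plin1, the coat protein of lipid droplets, at 0.254 and 0.478, while Pdgfra, a receptor of fibroblasts and progenitors, was at 95.6 and 73.9 and Col1a1, a collagen of fibroblasts, at 1937 and 1428. The 2 defining adipocyte markers were thus near the floor in both libraries. Of the 12 adipocyte markers listed, 7 stayed below an FPKM of 1, and the other 5 did not, some of them at high levels. Among those 5, named after their values were seen except Cd36, were the fatty acid binding protein Fabp4, at 96.9 in each library, the fatty acid transporter Cd36, at 118 and 161, and the lipase Lpl, at 68.0 and 66.6. Pnpla2, another lipase, was at 5.11 and 5.76, and Pparg, the regulator of fat cell differentiation, at 4.59 and 4.69. In bulk RNA, a larger number of cells of a type and more RNA per cell cannot be told apart.

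The receptor Egfr was by far the most abundant member, and epiregulin was the most abundant ligand. In the sham-irradiated library the order was Egfr, Ereg, Erbb2, Hbegf, Btc, Nrg1, Areg, Tgfa, and Erbb3. The 95% counting intervals (exact Poisson) of neighbours did not overlap among the first 5 of these, while each of Btc, Nrg1, and Areg overlapped with the next in line and Tgfa did not overlap with Erbb3. In the irradiated library Hbegf stood above Erbb2, at 5.64 against 4.43, and Tgfa above Areg, and the 4 members from Nrg1 down to Erbb3 overlapped with their neighbours. An FPKM of 1 was reached by 4 members in both libraries, Egfr, Ereg, Hbegf, and Erbb2, and by the other 5 in neither.

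**Figure D1:**
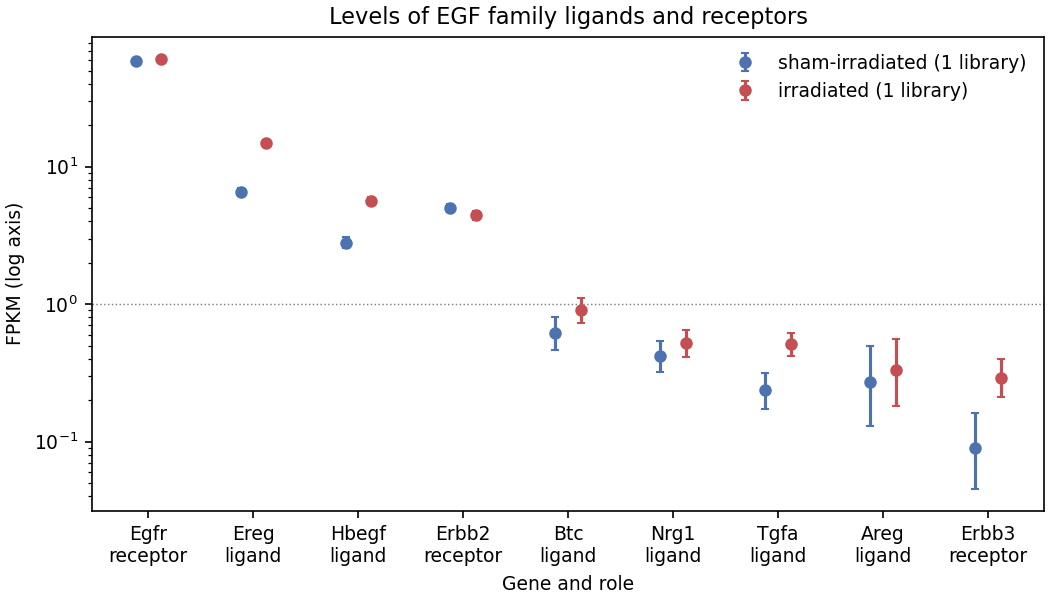
FPKM of the 9 genes on a log axis in the sham-irradiated (blue) and irradiated (red) library, with bars for the exact 95% Poisson interval of counting. The dotted line marks an FPKM of 1, which Egfr, Ereg, Hbegf, and Erbb2 exceeded in both libraries and the other 5 genes in neither.

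Of these 4 members, 1 was higher by at least 1 in the irradiated library, Ereg, against 0.791% of the 11253 genes that reached an FPKM of 1 in either library. None of the 4 was lower by at least 1, against 0.373% of those genes. Over all 9 members and without the filter, 2 were higher by at least 1, Ereg and Erbb3, against 1.11% of 24091 genes. The median difference was 0.49 over the 9 members and 0.505 over the 4, beside 0.02 over the 11253 genes. Counting intervals lay above 0 for 5 of the 9 members (Ereg, Hbegf, Tgfa, Btc, and Erbb3), against 12.9% of the 24091 genes, and below 0 for 1 member, Erbb2, against 8.77%.

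**Figure D2:**
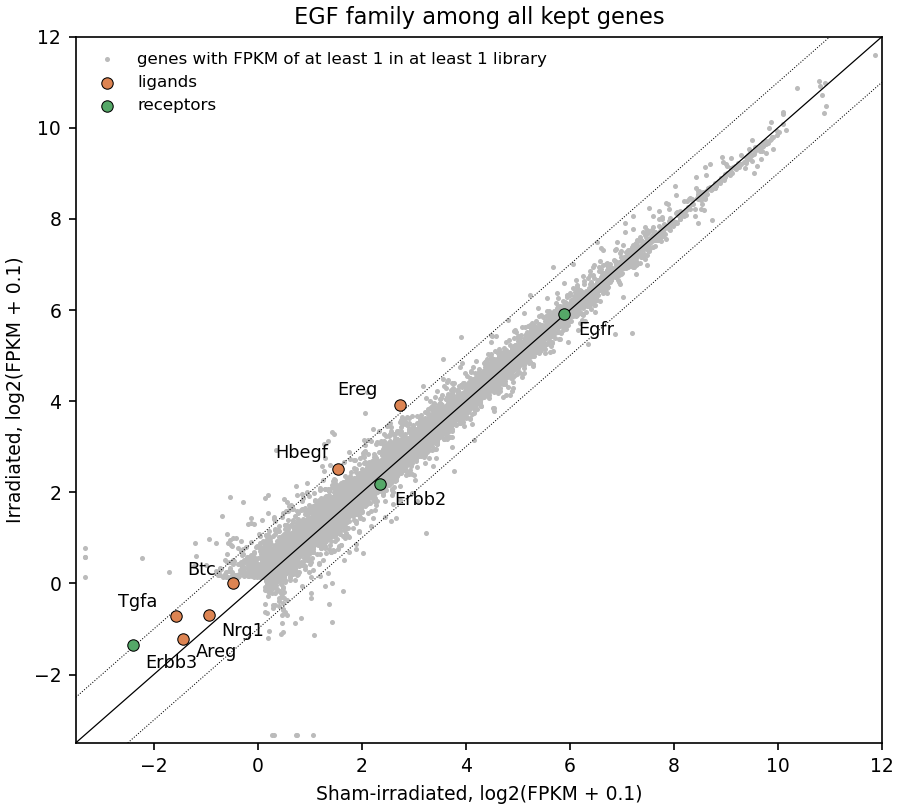
Deposited log2(FPKM + 0.1) in the sham-irradiated (x axis) and irradiated (y axis) library for the 11253 genes that reached an FPKM of 1 in either library (grey), with all 6 ligands in orange and all 3 receptors in green. The solid line marks equal values and the dotted lines a difference of 1, which Ereg exceeds at 1.18 and Hbegf nearly reaches at 0.98, while Egfr lies close to the solid line at 0.03.

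Among the ligands, epiregulin (chromosome 5, 91074617 to 91093649, plus strand), a growth factor of epithelial repair and of the ovarian follicle, showed the largest difference. Its FPKM was 6.53 (6.10 to 7.0) without and 14.9 (14.3 to 15.6) with irradiation, on 826 and 2159 fragments. The difference was 1.18 with a counting interval from 1.08 to 1.31, a ratio of fragments of 2.28, and 51 of the 11253 genes had a larger one.

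Hbegf (chromosome 18, 36504927 to 36515805, minus strand) encodes a ligand whose human membrane form is also the receptor of diphtheria toxin. Its FPKM was 2.81 (2.54 to 3.10) and 5.64 (5.28 to 6.01), on 406 and 931 fragments. Its level was thus also higher in the irradiated library, by 0.98 with a counting interval from 0.83 to 1.17. The 2 most abundant ligands together held 85.8% of the summed ligand FPKM without irradiation and 90.1% with it.

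The other 4 ligands stayed below an FPKM of 1 throughout. Tgfa (chromosome 6, 86195227 to 86275743, plus strand), the classical autocrine ligand of EGFR, was at 0.237 and 0.511, on 46 and 114 fragments, a difference of 0.86 with a counting interval from 0.61 to 1.64. The added 0.1 shrinks its difference, and the ratio of its fragments was 2.17. Btc (chromosome 5, 91357261 to 91402994, minus strand), first known from insulin-producing tumour cells, was at 0.617 and 0.907, on 54 and 91 fragments, a difference of 0.49 with an interval from 0.06 to 1.07. The intervals of Tgfa and Btc thus both lay above 0, that of Btc narrowly.

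For the remaining ligands no difference was detectable at this depth. Areg (chromosome 5, 91139599 to 91148432, plus strand), a ligand known from immune cells in tissue repair, was at 0.271 on 10 fragments and 0.332 on 14, with an interval from -0.98 to 1.62. Nrg1 (chromosome 8, 31818028 to 32009491, minus strand), a ligand best known in nerve and heart, was at 0.421 on 60 fragments and 0.520 on 85, with an interval from -0.19 to 0.81. All 6 ligands had a higher value in the irradiated library, which was true of 39.2% of the 24091 genes, while 31.4% had a lower one. The 6 genes share their libraries and are not replicates.

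**Figure D3:**
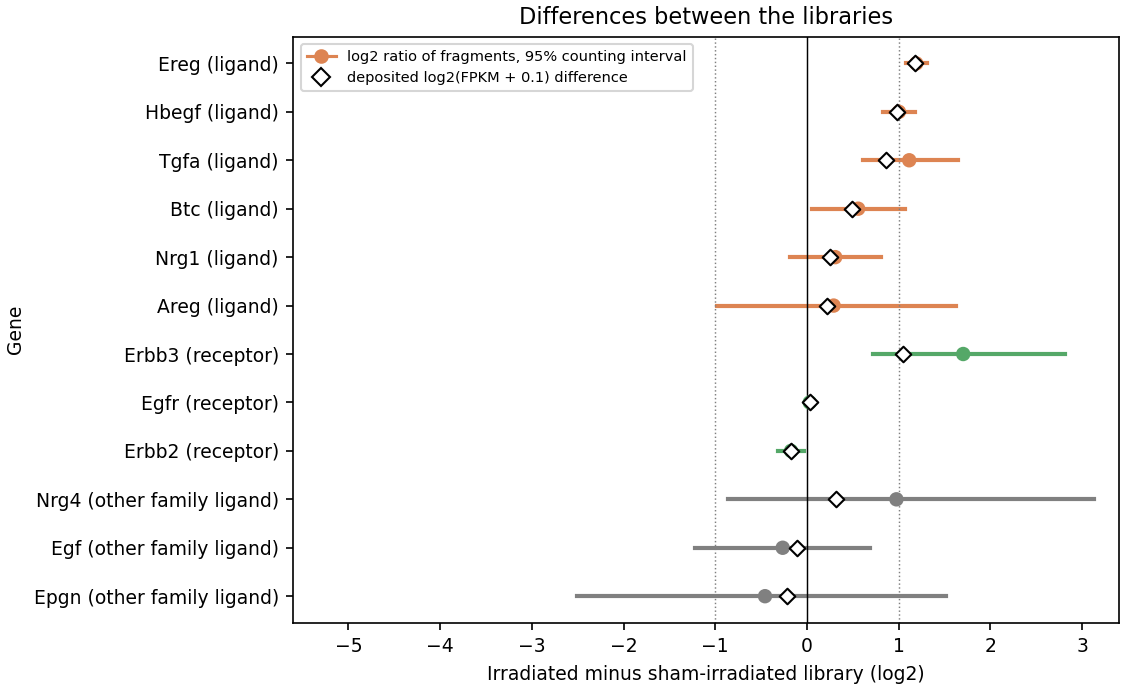
Difference between the irradiated and the sham-irradiated library, on a log2 scale, for the 6 ligands (orange), the 3 receptors (green), and 3 further family ligands with over 3 fragments in each library (grey). Circles show the ratio of fragments with its exact 95% counting interval and diamonds the deposited difference, and the intervals of Ereg, Hbegf, Tgfa, Btc, and Erbb3 lie to the right of 0 while that of Erbb2 lies to the left.

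Among the receptors, Egfr (chromosome 11, 16752203 to 16913907, plus strand), the receptor of the EGFR ligands, had nearly the same level in both libraries. Its FPKM was 59.2 (58.1 to 60.3) and 60.4 (59.4 to 61.5), on about 11901 and 13904 fragments. The difference of 0.03 had a counting interval from -0.01 to 0.07, which leaves out differences as large as those of Ereg and Hbegf, and 45.3% of the 11253 genes had a larger difference.

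Erbb2 (chromosome 11, 98412484 to 98437716, plus strand), the partner receptor without a ligand, was at 5.00 (4.65 to 5.37) and 4.43 (4.12 to 4.76). It was the only member with a lower value in the irradiated library, by a difference of -0.17 with an interval from -0.32 to -0.03. Mien1, listed on the opposite strand and overlapping Erbb2, was at 19.1 and 22.1. The library preparation is labelled as stranded, but no source used here says if the counting used strand, so fragments in the overlap cannot be assigned with certainty.

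Erbb3 (chromosome 10, 128569368 to 128589501, minus strand), the neuregulin receptor, was the least abundant member. Its FPKM was 0.0895 (0.0450 to 0.161) and 0.292 (0.211 to 0.398), on 11 and 41 fragments, a difference of 1.05. The counting interval of the ratio ran from 0.72 to 2.81, so the higher value in the irradiated library exceeded the counting error while its size was poorly fixed. Erbb3 is typically found in epithelial cells, and all 9 epithelial markers listed stayed below an FPKM of 1. Krt5 and Esrp1 were at 0 and Epcam at 0.0638 and 0.0560. The summed FPKM of the 9 was 0.425 and 0.706, of which Krt7 made up 0.208 and 0.418, on 10 and 23 fragments. The counting interval of Krt7 ran from -0.12 to 2.24. The keratins Krt8, Krt18, and Krt19 were listed under mesothelial markers instead and were higher in the irradiated library. They were at 1.04 and 2.81, 0.542 and 1.33, and 0.814 and 2.41, respectively. Of the 9 mesothelial markers, 8 were higher and 1 lower. Krt5, Esrp1, and Krt7 were named after their values were seen. Of 8 markers of Schwann cells, which depend on Nrg1 and Erbb3, 7 stayed below an FPKM of 1. Their summed FPKM was 2.33 and 3.08, of which Mbp, a myelin protein and the gene that exceeded 1, made up 1.65 and 2.43. Sox10, the defining factor of that lineage, was at 0.0358 on 3 fragments and 0.0948 on 9. Of the 8 markers, 6 had a higher and 2 a lower value, against 39.2% and 31.4% of the 24091 genes. Cdh19, with 19 and 10 fragments, had the largest difference, -0.65 (counting interval -2.39 to 0.06). S100b, also lower, had 5 and 2 fragments. Cdh19 and S100b were named after their values were seen. The part of epithelial, mesothelial, and Schwann cells in the Erbb3 values was not tested.

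Ligand and receptor levels were then set against each other. The summed FPKM of the 6 ligands was 10.9 ± 0.30 (SE of counting) without and 22.8 ± 0.40 with irradiation, a ratio of 2.10. That of the 3 receptors was 64.3 ± 0.573 and 65.2 ± 0.539, a ratio of 1.01. Receptor RNA therefore exceeded ligand RNA 5.90-fold without and 2.85-fold with irradiation. Egfr alone held 92.1% and 92.8% of the receptor sum, and its level was 9.06 times that of Ereg without and 4.05 times with irradiation. Without Ereg the ligand sum was 4.35 and 7.91, a ratio of 1.82, and without Egfr the receptor sum was 5.09 and 4.72. These are RNA levels, and protein on or released from the cells was not measured in these libraries.

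**Figure D4:**
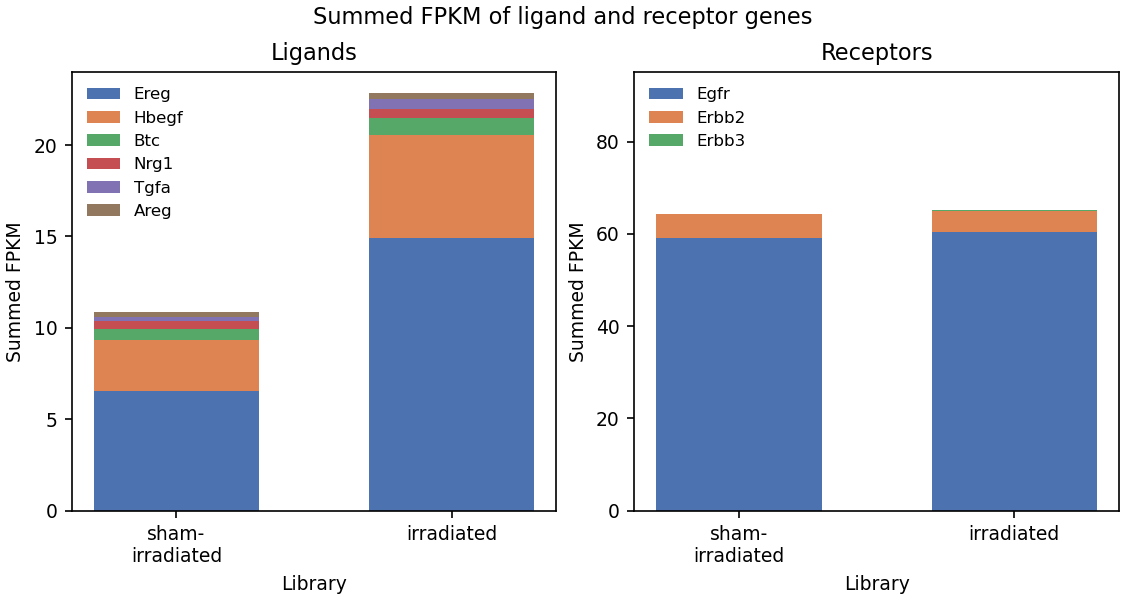
Summed FPKM of the 6 ligands (left) and the 3 receptors (right) in each library, with 1 coloured segment per gene and a separate axis from 0 in each panel. The ligand sum is 10.9 without and 22.8 with irradiation, mostly from Ereg and Hbegf, and the receptor sum is 64.3 and 65.2, mostly from Egfr.

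The remaining family genes, Egf, Epgn, Nrg2, Nrg3, Nrg4, and Erbb4, all stayed below an FPKM of 1. Egf, the founding ligand, was at 0.0843 and 0.0708, on 21 and 20 fragments, and epigen (Epgn) at 0.112 and 0.0817, on 6 and 5. Nrg4, a neuregulin known as a product of brown fat, had 4 and 9 fragments and Nrg2 had 2 and 1. Erbb4 and Nrg3 had no fragments in either library. For Erbb4 this allows an FPKM of up to 0.00814 (sham-irradiated) and 0.00711 (irradiated), the level of 3 fragments, and for Nrg3 of up to 0.0144 and 0.0126. The 4 ligands with fragments in both libraries each had a counting interval that included 0.

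Several of the ligands are neighbours on chromosome 5. From the start of Epgn to the end of Btc the table lists 5 genes over 375 kb, Epgn, Ereg, Areg, the predicted gene Gm19619, and Btc. Ereg ends 45.95 kb before Areg starts, and both lie on the plus strand, yet the FPKM of Ereg was 6.53 and 14.9 while that of Areg was 0.271 and 0.332. Epgn, at the other side of Ereg, was at 0.112 and 0.0817, and Gm19619 had 2 fragments in each library. Of the 5, Ereg and Btc had counting intervals above 0, against 12.9% of the 24091 genes. Both are members already described above.

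Promoter sequence was found in the RefSeq table (GRCm38.p6) for 5 of the 9 members, Areg, Btc, Tgfa, Egfr, and Erbb2. The 250 bases before the start were searched on both strands for the AP-1 site TGACTCA, the CRE TGACGTCA, the GC box GGGCGG, and the TATA box TATAAA, and no match overlapped another. Areg is shown as the neighbour of Ereg, Tgfa as the ligand with the largest difference among the 5, and Egfr as the abundant receptor, with matches in capitals.
Areg, chr5:91139349-91139598, plus strand: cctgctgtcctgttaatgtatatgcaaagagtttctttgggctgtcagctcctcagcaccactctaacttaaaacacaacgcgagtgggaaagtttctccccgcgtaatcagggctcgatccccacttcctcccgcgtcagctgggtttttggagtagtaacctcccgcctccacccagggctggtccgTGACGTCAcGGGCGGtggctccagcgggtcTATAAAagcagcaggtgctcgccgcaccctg
Tgfa, chr6:86194972-86195221, plus strand: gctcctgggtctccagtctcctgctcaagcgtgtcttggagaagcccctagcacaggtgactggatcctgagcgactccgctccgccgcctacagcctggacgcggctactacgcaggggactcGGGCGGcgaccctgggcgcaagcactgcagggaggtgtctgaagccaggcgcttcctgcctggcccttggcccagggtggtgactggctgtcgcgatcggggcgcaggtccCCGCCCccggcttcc
Egfr, chr11:16751953-16752202, plus strand: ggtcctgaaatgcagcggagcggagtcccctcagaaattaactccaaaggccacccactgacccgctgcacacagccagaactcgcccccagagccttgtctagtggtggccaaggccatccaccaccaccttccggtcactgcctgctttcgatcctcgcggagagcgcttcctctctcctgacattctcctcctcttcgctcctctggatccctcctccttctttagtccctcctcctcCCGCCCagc

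Areg held 1 CRE, 1 GC box, and 1 TATA box, Tgfa held 2 GC boxes, and Egfr held 1 GC box. The windows of Btc and Erbb2 held none of the 4 motifs. Among all 32851 promoters of the table, the same window held a CRE in 1.55%, a TATA box in 12.4%, a GC box in 32.7%, and an AP-1 site in 4.46%. A match describes the letters of the sequence and is not a measured site.

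The other genes of the pathway were described by lists of proteases, inhibitors, relay proteins, and target genes. Of the 9 genes of ligand shedding, none differed by at least 1, the median difference was 0.06, and 2 counting intervals lay above 0 and 3 below. Among the 11253 genes that reached an FPKM of 1 in either library, 23.8% had an interval above 0 and 17.4% below. Adam17, the main protease that releases EGFR ligands and named here after its value was seen, was at 25.7 and 23.3, a difference of -0.14 (interval -0.21 to -0.07). Rhbdf2, which encodes a cofactor of ADAM17, had the largest difference of the list, from 2.17 to 2.95, or 0.43 (interval 0.25 to 0.65).

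Of 12 receptor inhibitors and turnover genes, none differed by at least 1, and the median was 0.095. Among their intervals, 6 lay above 0 and 0 below, against 23.8% and 17.4% of the 11253 genes. The largest difference was that of Errfi1, a feedback inhibitor that binds the EGFR kinase, from 30.4 to 41.5, or 0.45 (interval 0.39 to 0.51). Relay genes hardly differed, with medians of 0.035 for the 16 genes of the ERK route and -0.04 for the 9 genes of the PI3K and AKT route. Their intervals lay above 0 for 3 and 1 genes and below 0 for 2 and 3, respectively. The largest differences were those of Hras, a small GTPase of the ERK route, at 0.21, and Pik3cb, a catalytic subunit of PI3K, at 0.37.

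The 20 ERK feedback and target genes, which many growth factors besides the EGF family can induce, mostly had higher values in the irradiated library. Of these, 18 had a higher and 2 a lower value, against 53.5% and 44% of the 11253 genes. Their median difference was 0.36, although no gene reached a difference of 1. Among their counting intervals, 15 lay above 0 and 0 below, against 23.8% and 17.4% of the 11253 genes. Dusp5, an ERK phosphatase in the nucleus, had the largest difference, from 4.07 to 8.07, or 0.97 (interval 0.70 to 1.28). Genes named after their values were seen include the phosphatases Dusp4, from 11.9 to 20.01, and Dusp6, from 13.4 to 19.6, and the pathway inhibitor Spry4, from 2.45 to 4.10. They also include the transcription factor Etv4, from 1.55 to 2.69, and Ccnd1, a cyclin of the G1 phase, from 7.01 to 11.8. The lower values were those of Junb, with a difference of -0.05, and Ier2, with -0.06, both immediate early genes whose intervals included 0. Myc, a growth-promoting transcription factor, was at 30.6 and 31.7.

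**Figure D5:**
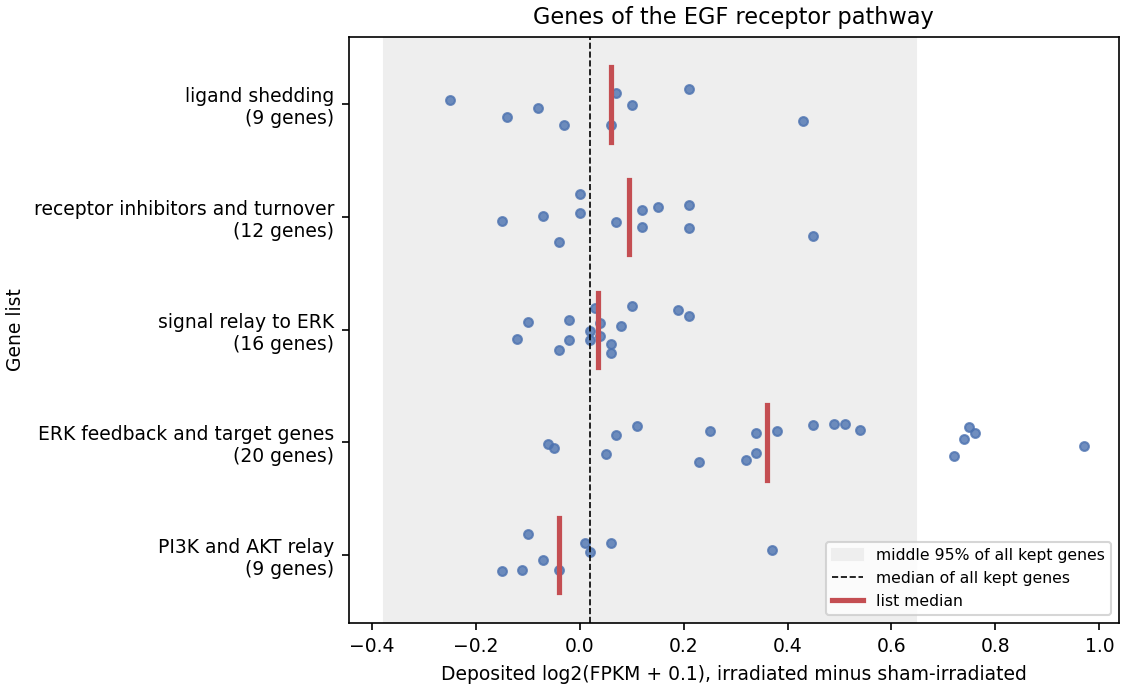
Deposited log2(FPKM + 0.1) difference, irradiated minus sham-irradiated, of each gene (blue) in 5 lists of the EGF receptor pathway, with the list median in red, the median of the 11253 kept genes as a dashed line at 0.02, and their middle 95% in grey, from -0.38 to 0.65. The median of the ERK feedback and target genes lies at 0.36 and those of the other lists between -0.04 and 0.095, with points spread vertically for legibility.

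Markers of other cell types also differed between the libraries. All 9 mesothelial markers reached an FPKM of 1 in either library, but Msln, Upk3b, Krt19, Krt18, and Gpm6a did so only in the irradiated one. The filter therefore favours higher values there. Gpm6a was named after its values were seen. The summed FPKM of the 9 was 35.4 without and 51.1 with irradiation. Msln, which defines these cells, was at 0.520 and 2.71. Of the 9 markers, 5 were higher by at least 1, against 0.791% of the 11253 genes. Those 5 were Msln, Upk3b, Krt19, Krt8, and Krt18, with differences of 2.18, 1.37, 1.46, 1.35, and 1.16. Wt1, a mesothelial factor and the most abundant of the list, was lower by contrast, at 20.4 and 18.7. The 11 macrophage markers summed to 615 and 655, and 9 of them were higher, most of all C1qa and C1qc, subunits of complement, by 0.80, while Adgre1, the defining F4/80 antigen, was at 15.7 and 15.5. The 8 endothelial markers summed to 45.2 and 49.5, with Pecam1 at 10.2 and 11.5 and the largest difference in Emcn, at 0.33. The 11 fibroblast and progenitor markers summed to 3716 and 3019, but 6 of them were higher and 5 lower, with a median difference of 0.01. The lower sum came mostly from the collagens Col1a1, at 1937 and 1428, and Col3a1, at 873 and 694. The largest difference of that list was that of Pi16, at -0.55, while Dpp4 and Thy1 were higher by 0.44 and 0.40, and Col3a1, Dpp4, and Thy1 were named after their values were seen. The 12 adipocyte markers summed to 294 and 337, and most of this difference was that of Cd36, at 0.45. The median of the 5 adipocyte markers that reached an FPKM of 1 was 0.03, with Fabp4 at 0.00, Lpl at -0.03, and Pparg at 0.03. Over all 12 the median was 0.2, with 10 higher and 1 lower, and 3 counting intervals lay above 0 and 0 below. Higher values were found for 39.2% of the 24091 genes and 53.5% of the 11253. Intervals lay above 0 for 12.9% and 23.8% of them, and below 0 for 8.77% and 17.4%. Plin1, below an FPKM of 1, had 26 and 56 fragments, a difference of 0.71 with an interval from 0.22 to 1.64. The part of these cell types in the differences of Ereg, Hbegf, Erbb3, and the ERK target genes was not tested.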

How the data were processed

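RNA sequencing of 2 libraries, 1 sham-irradiated and 1 irradiated, was analysed. Samples were assigned to conditions by their labels, and the table's columns carry the sample titles. The paper linked to the series describes other experiments and no RNA sequencing, so no method was taken from it. Values deposited by the authors are the log2 of FPKM after adding 0.1, given to 2 decimals beside gene coordinates and lengths. The build mm10 comes from the submitters' processing notes, and 6 of the 9 members shared a chromosome and a start or end with RefSeq genes of GRCm38.p6. Aligner, counting tool, and filters: not given in the sources used here.

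The logarithm was undone and 0.1 subtracted to obtain FPKM. Each library's total was the number at which FPKM multiplied by gene length gave whole fragments for genes with up to 20 fragments. Only genes whose rounding error stayed below 0.1 of a fragment were used. All 3450 and 3422 of these lay within 0.12 of a whole number. Because the total was chosen for that fit, this is not a separate check of it. The shares of fragments on listed genes were 86.8% and 86.9%. Fragments of abundant genes are approximate because of rounding, which can shift a difference by up to 0.01. The procedure was tested on simulated data. Coding sequences were taken from the longest GENCODE M21 coding transcript of each ligand.

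With 1 library per condition, no test was possible. Counts were made over genes that reached an FPKM of 1 in either library, and differences of at least 1 were counted. The limit for a gene with 0 fragments is that of 3 fragments. The members, gene lists, and rules were chosen with earlier results of these data known. Genes were named by rule, namely all members, the other family genes, defining markers, in each list the gene with the largest difference and those past 1, and the 3 genes nearest in level to the member with the largest difference. Others are stated as named after their values were seen, and Junb, Ier2, Myc, and Wt1 were named in the same way. Mien1 and Gm19619 were named for their positions beside members. Alternatives were other pseudocounts, filters, and thresholds, centring, rescaling, and sums without the most abundant gene. Scripts ran in Python 3.11.15 with pandas 2.3.3, numpy 2.4.6, and SciPy 1.17.1, and figures were drawn with matplotlib 3.10.9.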

Additional observations from a re-analysis of the deposited data

How the results depend on the processing

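No paired analysis was possible because there was 1 library per condition, and no replicate could be left out. No member changed sign under any of the 4 alternatives tried for it. A change of pseudocount cannot alter a member's sign, so only centring and scaling could have done so. With a pseudocount of 1, the differences of Tgfa, Hbegf, and Erbb3 fell outside their counting intervals, at 0.289, 0.801, and 0.246, because the larger pseudocount shrinks low values. After centring, and after scaling without the 100 most abundant genes (a shift of -0.014), each member stayed within its counting interval. The value without a pseudocount is the ratio that the interval was computed from, so it could not fall outside. Without a pseudocount the difference of Hbegf was 1.003, just past the threshold of 1. Of the members, 2 were higher by at least 1 without the filter and 0 with a threshold of 2. Over all genes, 89 were higher and 42 lower by at least 1. These counts were 29 and 17 with a pseudocount of 1, 267 and 148 without the filter, 23 and 10 at an FPKM of at least 5, and 11 and 8 with a threshold of 2. No pathway list median changed sign with a pseudocount of 1 or after centring. The filter removed no gene from the lists of shedding, inhibitor, relay, and target genes, so leaving it out could not change their medians. Without Ereg and Egfr, the summed FPKM was 4.35 and 7.91 for ligands and 5.09 and 4.72 for receptors. Depth limits Areg, with 10 and 14 fragments, and Erbb3, with 11 and 41.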

Other observations

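The 3 genes nearest to Ereg in level, by distance between the deposited log2 values over the 2 libraries, were Eda2r, Igfbp6, and Npy. Eda2r, a receptor of the tumour necrosis factor family, was at an FPKM of 6.77 and 12.5, a difference of 0.87 at a distance of 0.265. Igfbp6, a binding protein of insulin-like growth factors, was at 7.16 and 12.5, and Npy, which encodes neuropeptide Y, at 6.96 and 12.1, with differences of 0.80 and 0.79. All 3 differences were smaller than that of Ereg, at 1.18. With 2 libraries, likeness in level says no more than this.

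Lymphocytes and mast cells can make amphiregulin, and their markers differed in both directions. Of 11 markers, 9 had a lower value and 2 a higher one in the irradiated library. A lower value was found for 31.4% of all 24091 genes and for 44% of the 11253 that reached an FPKM of 1 in either library. Of the 11 counting intervals, 4 lay below 0 and 1 above. Intervals below 0 were found for 8.77% of the 24091 genes and 17.4% of the 11253. Those above 0 made up 12.9% and 23.8%. The summed FPKM of the 11 markers was 18.7 and 17.7. Il1rl1, the receptor of interleukin 33 and the most abundant of the list, was higher, at an FPKM of 7.52 and 10.4, a difference of 0.46 (counting interval 0.37 to 0.56), and was named after its value was seen. Cd3d, part of the T cell receptor complex, had 15 and 4 fragments, a difference of -1.33, and Cpa3, a mast cell protease, was at an FPKM of 3.29 and 1.93, a difference of -0.74. Areg itself had 10 and 14 fragments, and the relation between these values was not tested.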
